A study of Mus musculus with 38 samples.

Results

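Mest, Copg2 and Klf14 lie side by side in an imprinted cluster of mouse chromosome 6, where the copy of a gene that is read depends on the parent it came from. Mest (also called Peg1) encodes a protein with an α/β-hydrolase fold and is read from the paternal copy, while the CpG-rich sequence at its main promoter is DNA-methylated on the maternal copy from the egg onwards. Methylated copies of such imprinting control sequences are known to carry H3K9me3, a mark of heterochromatin that is placed there through the zinc finger protein ZFP57 and its partner TRIM28, and the unmethylated copies to carry marks of active promoters. Copg2, which encodes a subunit of the COPI vesicle coat, runs towards Mest from the other side and overlaps its 3′ end. Klf14 encodes a Krüppel-like transcription factor in a single exon.

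At these 3 genes, ChIP-seq of 5 histone marks was compared in mouse embryonic stem cells with IκBα (IκBα-WT) and without it (IκBα-KO). In IκBα-WT cells, Mest lay under a block of H3K9me3 of 15.4 to 17.4 kb in 3 of 3 libraries and had no call of H3K4me3 or H3K27ac in any library. In IκBα-KO cells the H3K9me3 block was called in 0 of 3 libraries, and H3K4me3, H3K27ac and H3K4me1 were called around the main Mest start in 3 of 3. A block of H3K27me3 of 9.6 to 10.6 kb, ending just past the main start, was called in 3 of 3 IκBα-KO libraries too. In IκBα-WT cells only library 2 had an H3K27me3 call in that stretch, and it was weaker. The far part of Copg2 and Klf14 did not show this exchange of H3K9me3 for other marks.

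The 3 genes, of 21938 protein-coding genes in the GENCODE M21 annotation of GRCm38, were chosen by measured values, because they had been listed with the calls of these same 30 ChIP libraries in view. The differences between the genotypes at the 3 genes are therefore given as a description, with no test. Mest (ENSMUSG00000051855) spans 30723547 to 30748465 on the plus strand, Copg2 (ENSMUSG00000025607) spans 30747554 to 30896794 on the minus strand, and Klf14 (ENSMUSG00000073209) spans 30956023 to 30959078 on the minus strand of chromosome 6. Each was read in a window of the gene plus 5 kb on either side, which made 34.9 kb for Mest, 159.2 kb for Copg2 and 13.1 kb for Klf14. The windows of Mest and Copg2 share 10912 bp (30742554 to 30753465), so calls there count for both genes.

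The cells were of the ES-E14TG2a line, grown in serum with leukaemia inhibitory factor and collected at 0 h, before any differentiation. IκBα-KO cells had been edited with CRISPR-Cas9 and guides against the first exon of Nfkbia, the gene for IκBα, and IκBα-WT cells had received non-targeting guides. The libraries of a genotype came from separate clones, so a difference between the genotypes is one between small sets of clones. Of the 38 samples, 30 were ChIP libraries (3 per genotype and mark) and 8 were inputs. The H3K4me1 and H3K27ac libraries of a genotype shared the same input. Libraries from E14 cells hold both parental copies of a gene without telling them apart.

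A library had from 21836 (H3K4me3) to 76172 calls (H3K4me1). Inside the calls, which is the depth that the lists show, lay 8910890 to 10938375 reads of H3K27me3 libraries, 8548342 to 12105343 of H3K9me3, 22943091 to 28339766 of H3K27ac and 34736939 to 35951506 of H3K4me1. The H3K4me3 lists hold no read counts. Over whole lists, H3K9me3 calls covered 201705400 to 207303200 bp in WT and 172467600 to 185658800 bp in KO. H3K27ac calls covered 380447000 to 392531000 bp in WT and 410555000 to 419248800 bp in KO. H3K27me3 calls also covered more in all 3 KO libraries, H3K4me1 calls covered less, and for H3K4me3 the groups overlapped. The part of this in the values at the 3 genes was not tested. A list holds called sequence only, so a value of 0 means that nothing was called and not that no reads fell there. For the cell type, 7 of 8 stem cell genes (all but Esrrb, and Pou5f1, Nanog and Sox2 among them) had an H3K4me3 call within 1 kb of their start in all 6 libraries. Of 12 genes of other cell types, 12 had H3K27me3 at the start in 3 of 3 WT libraries and 11 (not Elf5) in 3 of 3 KO libraries, while 7 and 6 of them also had H3K4me3. Of the 8 stem cell genes, 2 (Esrrb and Klf4) had H3K27me3 at the start in all 6 libraries. Shares over all genes were not taken, so these counts are a description and do not settle the cell type. The calls at Nfkbia itself, where H3K4me3 covered 1168 to 1523 bp in WT and 235 to 1286 bp in KO with overlapping groups, are no check of the genotype.

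The main Mest start is that of transcript Mest-211, at 30738050. Upstream transcripts start at 30723547 (Mest-201 and Mest-206), 30731968 (Mest-209), 30733454 (Mest-207) and 30733506 (Mest-210). RefSeq promoter sequences (GRCm38.p6) matched 2 of the 3 genes, Mest and Copg2, and not Klf14. The 250 bases before a start are shown for the main and for an upstream Mest start and for Copg2, because these 3 starts differed in their calls. Both Mest starts lay under H3K9me3 in all 3 WT libraries, and the Copg2 start in no WT library. Of the Mest starts shown, only the main one had an H3K4me3 peak over it or beginning within 12 bp of it in all 3 KO libraries. These stretches are followed by the 300 bases of the intron after the exon of the main start, where the H3K4me3 summit of KO library 1 lies. All are written 5′ to 3′ on the strand of the gene. Capitals mark TGCCGC, the core sequence that ZFP57 is known to bind when methylated, and its reverse complement.
Mest before the main start, chr6:30737800-30738049, plus strand: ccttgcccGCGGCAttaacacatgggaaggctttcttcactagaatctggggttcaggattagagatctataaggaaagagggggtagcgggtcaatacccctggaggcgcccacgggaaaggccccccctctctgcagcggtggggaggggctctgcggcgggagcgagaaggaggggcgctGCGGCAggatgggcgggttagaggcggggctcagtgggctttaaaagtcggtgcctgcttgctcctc
Mest before the start of Mest-210, chr6:30733256-30733505, plus strand: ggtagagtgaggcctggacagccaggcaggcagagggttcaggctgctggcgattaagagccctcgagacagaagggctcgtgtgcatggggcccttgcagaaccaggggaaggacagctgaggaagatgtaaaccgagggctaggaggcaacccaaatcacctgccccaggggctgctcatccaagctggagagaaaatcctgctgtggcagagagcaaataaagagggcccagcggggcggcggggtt
Copg2 before the start of Copg2-208, chr6:30896795-30897044, minus strand: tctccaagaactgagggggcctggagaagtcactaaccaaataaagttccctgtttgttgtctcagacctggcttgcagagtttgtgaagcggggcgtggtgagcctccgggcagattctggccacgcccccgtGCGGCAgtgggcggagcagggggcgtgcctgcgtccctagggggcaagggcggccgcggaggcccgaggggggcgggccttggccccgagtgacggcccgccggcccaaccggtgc
Mest intron after the exon of the main start, chr6:30738336-30738635, plus strand: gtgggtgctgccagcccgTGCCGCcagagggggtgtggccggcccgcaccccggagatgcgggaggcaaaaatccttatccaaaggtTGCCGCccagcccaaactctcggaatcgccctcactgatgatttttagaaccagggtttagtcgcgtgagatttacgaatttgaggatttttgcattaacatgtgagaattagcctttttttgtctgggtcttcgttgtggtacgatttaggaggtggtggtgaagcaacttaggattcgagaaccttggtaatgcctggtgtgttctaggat

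The stretch before the main Mest start holds the core motif 2 times and 14 CpG, that before Mest-210 holds the motif 0 times and 7 CpG, and that before Copg2 holds the motif 1 time and 19 CpG. Of 32817 RefSeq promoters cut to the same 250 bases, 8.68% hold the motif at least 1 time on either strand and 0.875% at least 2 times. The motif also stands 2 times in the intron stretch. Between the main start and the end of that stretch, which takes in the whole exon, 586 bases hold 50 CpG, an observed to expected ratio of 0.936, and 6 motifs. The H3K9me3 block that all 3 WT libraries share holds 15 motifs in 15400 bases, or 0.974 per kb against 0.0578 per kb over chromosome 6, and 12 of the 15 lie within 1 kb of the main start. The motif contains a CpG, and the block holds 21.4 CpG per kb against 7.79 over chromosome 6. The median of the 32817 promoters was 6 CpG. Neither comparison was matched for CpG content. A match is a description of the letters and shows no binding.

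**Figure D1:**
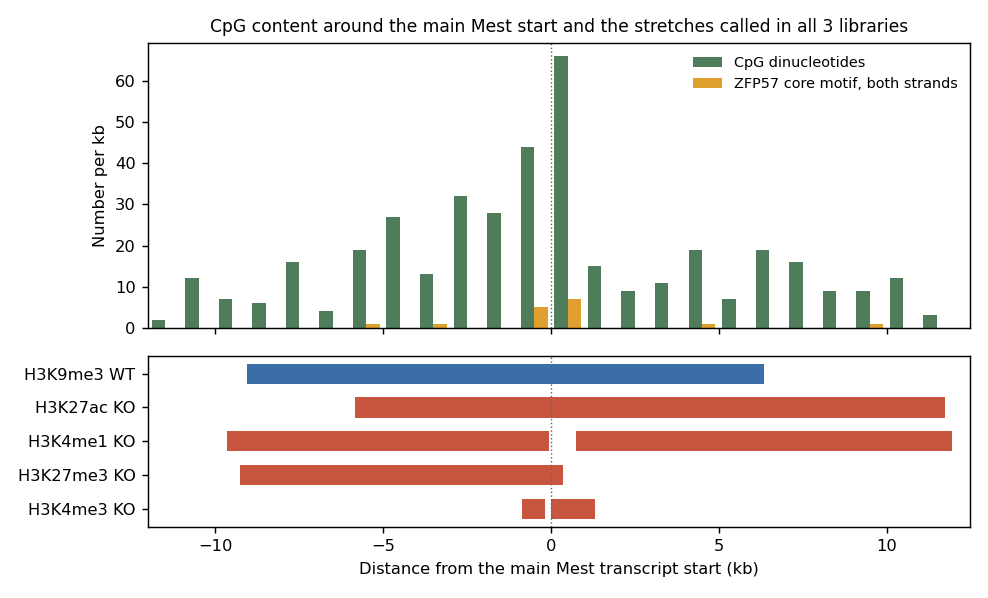
Bars give the number of CpG dinucleotides and of ZFP57 core motifs on both strands in steps of 1 kb along the distance from the main Mest start, in kb, and the lower bars give the sequence called in all 3 libraries of the genotype named for each mark. The kb before the start holds 44 CpG and 5 motifs and the kb after it 66 CpG and 7 motifs, and both lie under H3K9me3 in WT, while the H3K4me3 shared by the KO libraries runs from −855 to −170 bp and from 12 to 1302 bp.

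H3K9me3 was the mark of Mest in the WT cells. A single call ran from 30728601 to 30745000 in WT library 1, from 30729001 to 30744400 in WT library 2 and from 30728401 to 30745800 in WT library 3. The 3 calls held 1492, 1408 and 1400 ChIP reads against 344, 322 and 376 input reads, a log2 ratio of ChIP over input of 2.35, 2.54 and 2.43. They were wider than 98.4%, 97.4% and 98.6% of the calls of their lists and denser, at 91.0, 91.4 and 80.5 ChIP reads per kb of call, than 91.5%, 93.8% and 91.6% of them. In KO libraries 1, 2 and 3 no H3K9me3 was called in the window.

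The covered length was 16400 ± 1000 bp (SD, n = 3) in WT and 0 bp in each KO library, or 47.0% of the window against 0%. On the scale of ChIP reads per kb of window, the level was 42.7, 40.3 and 40.1 in WT and 0 in KO. Calls far weaker than the WT block were listed in the KO libraries, where the weakest 5% of calls lay under 25.5 to 30.0 ChIP reads per kb. Of the 12110 gene windows with an H3K9me3 call, 11.4% had less covered sequence in all 3 KO than in all 3 WT libraries, and 12.2% had fewer ChIP reads per kb. The comparison chose the genes, and nothing is read from Mest and Copg2 being in these shares.

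H3K4me3, which marks active promoters, was called at Mest in the KO libraries and not in the WT libraries. It covered 2056, 2976 and 2523 bp of the window in KO and 0, 0 and 0 bp in WT. The strongest peak ran from 30738033 to 30739352 in KO library 1, from 30736887 to 30739534 in KO library 2 and from 30738062 to 30739574 in KO library 3. It covered the main start in KO libraries 1 and 2 and began 12 bp past it in KO library 3. Its fold enrichment over input was 11.2, 16.0 and 16.0, with −log10 q-values of 23.5, 42.2 and 42.3, and 77.7%, 92.7% and 92.0% of the peaks of the same list were weaker. The peak stood among the stronger ones of each KO list, then, while WT had none.

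The summits lay 536, 260 and 244 bp downstream of the main start, the latter 2 in the exon and the former in the intron shown above. KO libraries 1 and 3 had a second, weaker peak just upstream of the start (fold enrichment 3.73 and 3.21), which in KO library 2 was part of the main peak. KO library 3 alone had a peak near the upstream starts (30732806 to 30733055, fold enrichment 4.02), and KO library 2 alone one at the start of the retained-intron transcript Mest-205 (30740673 to 30741000, 5.89). Of 31237 merged H3K4me3 regions, 3.12% were called in 3 of 3 KO and 0 of 3 WT libraries, the Mest region (30736887 to 30739574) among them. Windows with more H3K4me3 in all 3 KO libraries made up 24.5% of the 15151 with a call.

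H3K27ac, found at active promoters and enhancers, followed with a broad block. It covered 21600, 19000 and 18200 bp of the Mest window in KO and 0, 0 and 0 bp in WT, or 56.1 ± 5.09% (SD, n = 3) of the window against 0%. The 3 KO calls held 1651, 1504 and 1289 ChIP reads against 719, 622 and 602 input reads, and were denser, at 76.4, 79.2 and 70.8 ChIP reads per kb of call, than 86.7%, 88.7% and 90.0% of the calls of their lists. The weakest 5% of WT H3K27ac calls lay under 36.9 to 38.3 ChIP reads per kb, so WT lists held calls of less than the KO density elsewhere.

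H3K4me1, a mark of enhancers and of the flanks of promoters, covered 28800, 26200 and 25200 bp in KO and 0, 3600 and 4400 bp in WT. Its WT calls lay near the 5′ end of the gene, at 30720801 to 30724400 and 30719801 to 30724200, where all 3 KO libraries also had one. Over the main start there was none in WT, and the KO calls ran from 30728401 to 30752200, from 30728201 to 30750200 and, in KO library 3, in 2 pieces, from 30728201 to 30738000 and from 30738801 to 30750000. That gap holds the H3K4me3 summits of all 3 KO libraries. The Copg2 promoter had such a gap in H3K4me1 in all 6 libraries.

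All 3 KO libraries lay above all 3 WT libraries at Mest in covered length and in ChIP reads per kb of window for H3K27ac (36.9 to 47.3 against 0) and for H3K4me1 (49.7 to 57.0 against 0 to 5.13). Over all gene windows with a call, the same held for 21.6% in covered length and 24.1% in ChIP reads per kb for H3K27ac, and for 11.7% and 17.5% for H3K4me1. As merged regions, those at Mest (30728201 to 30751200 for H3K27ac and 30728201 to 30752200 for H3K4me1) were among the 1.35% and 1.49% called in 3 of 3 KO and 0 of 3 WT libraries. The WT H3K9me3 region belonged to the 2.58% with the opposite pattern.

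**Figure D2:**
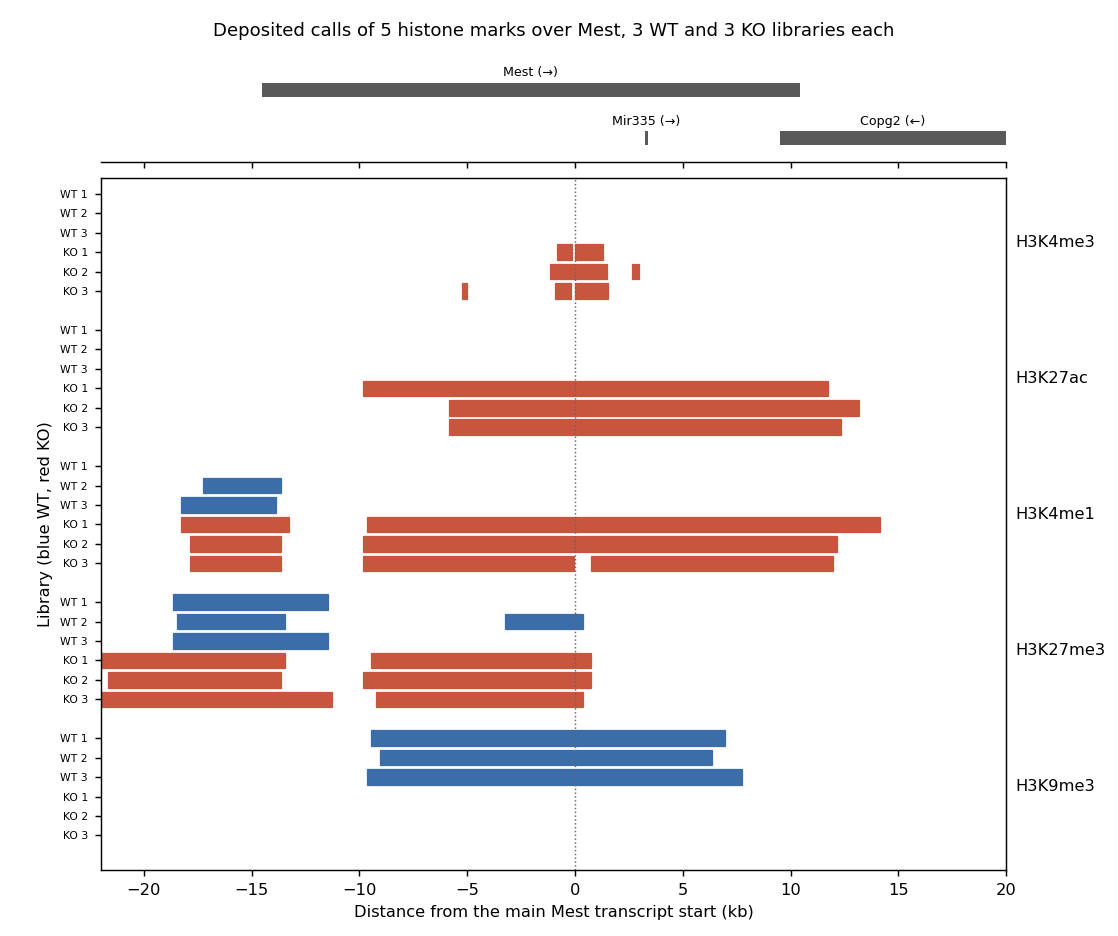
Each row is a library and each bar a deposited call, blue for IκBα-WT and red for IκBα-KO, along the distance from the main Mest transcript start in kb, with the genes on top. H3K9me3 bars stand in the WT rows only, and H3K4me3, H3K27ac and H3K4me1 bars around the start in the KO rows only, with a gap in H3K4me1 at the start in KO library 3.

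H3K27me3, the Polycomb mark of repressed genes, was also more extended at Mest in KO. It covered 7200, 8600 and 7200 bp of the window in WT and 16254, 16454 and 17854 bp in KO, and the level was 5.04, 5.50 and 5.04 ChIP reads per kb of window in WT and 20.4, 21.6 and 23.2 in KO. Both genotypes had a weak call at the 5′ end of the gene, such as 30719401 to 30726600 in WT libraries 1 and 3. A second block was called in KO from 30728601 to 30738800, from 30728201 to 30738800 and from 30728801 to 30738400, with 52.6, 55.4 and 60.4 ChIP reads per kb of call. WT library 2 alone had a call in this stretch (30734801 to 30738400), at 23.1 ChIP reads per kb. All 3 KO libraries lay above all 3 WT libraries on both scales. The same held in 10.9% of all gene windows with an H3K27me3 call for covered length and in 17.2% for ChIP reads per kb.

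The blocks had like upstream edges, apart from H3K27ac, and unlike downstream edges. Upstream, the WT H3K9me3 calls began at −9649 to −9049 bp from the main start, and the KO H3K4me1 and H3K27me3 calls at −9849 to −9249 bp. H3K27ac began at −9849 bp in KO library 1 and at −5849 bp in KO libraries 2 and 3. Downstream, KO H3K27me3 ended 350 to 750 bp after the main start, under the H3K4me3 peak, while H3K9me3 in WT went on to 6350 to 7750 bp and H3K27ac and H3K4me1 in KO to 11750 to 14150 bp, past the 3′ end of Mest.

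Of the 15400 bp of H3K9me3 shared by the WT libraries, the sequence called in all 3 KO libraries took in 94.8% for H3K4me1, 79.2% for H3K27ac, 61.0% for H3K27me3 and 12.8% for H3K4me3. In KO the part upstream of the start thus carried calls of H3K27me3 together with H3K4me1 and, in part, H3K27ac, and the part more than 751 bp downstream H3K27ac and H3K4me1 without H3K27me3. Whether the marks stood on the same or on different copies or cells cannot be told apart in these lists.

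The microRNA gene Mir335 lies within Mest, at 30741299 to 30741396, and was inside the blocks of H3K9me3, H3K27ac and H3K4me1. It was covered by H3K9me3 in 3 of 3 WT and 0 of 3 KO libraries and by H3K27ac and H3K4me1 in 0 of 3 WT and 3 of 3 KO libraries. Its mature forms are shown because they are a further product of the sequence under these blocks, as RNA from RefSeq with the seed (bases 2 to 8) in capitals.
mmu-miR-335-5p, chr6:30741314-30741336, plus strand: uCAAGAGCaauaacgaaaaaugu
mmu-miR-335-3p, chr6:30741354-30741375, plus strand: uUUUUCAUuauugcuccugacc

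Copg2 was in a different state in the shared stretch and in the rest of its window. In the 10912 bp shared with Mest, H3K9me3 covered 2447, 1847 and 3247 bp in WT and 0 bp in each KO library, H3K27ac 0 bp in each WT library and 7247, 8647 and 7847 bp in KO, and H3K4me1 0 bp in each WT library and 9647, 7647 and 7447 bp in KO. In the other 148329 bp, which hold its promoter, the groups overlapped for all 5 marks. There H3K27ac covered 2200, 1800 and 3400 bp in WT and 1400, 2600 and 2200 bp in KO, and H3K9me3 0 bp in all 6 libraries. The non-overlapping groups of the whole Copg2 window for H3K9me3, H3K27ac and H3K4me1 came from the stretch shared with Mest.

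The Copg2 promoter carried H3K4me3 in all 6 libraries, covering 578, 879 and 653 bp in WT and 768, 932 and 728 bp in KO. The highest fold enrichment there was 6.50, 6.56 and 7.12 in WT and 8.58, 7.86 and 9.77 in KO, so the groups did not overlap in height though they did in length. Farther inside the gene a short H3K4me1 call near 30832001 to 30833200 was found in all 6 libraries, with 47.5 to 57.5 ChIP reads per kb of call in WT and 55.7 to 65.7 in KO.

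Klf14 was under H3K27me3 in both genotypes. The mark covered 12278, 12678 and 12678 bp of its 13056 bp window in WT and 12878, 12078 and 12278 bp in KO, at 68.6, 72.4 and 61.9 ChIP reads per kb of window in WT and 57.7, 64.1 and 60.7 in KO, and the groups overlapped on both scales. These calls were denser than 95.1% to 97.9% of the calls of their lists. H3K4me1 was called there in all 6 libraries, covering 2800 to 4000 bp in WT and 3000 to 4800 bp in KO, and H3K9me3 and H3K27ac in none.

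H3K4me3 at Klf14 covered less sequence in KO and peaked higher. It covered 1567, 1675 and 1731 bp in WT and 1216, 1122 and 1165 bp in KO, and the groups did not overlap. WT had a second peak near the middle of the exon in 3 of 3 libraries, such as 30957593 to 30958078 in WT library 3, which no KO library had as a separate peak. The peak near the start alone was 1163, 1168 and 1245 bp wide in WT, so without the second peak the groups overlapped. The main peak near the start reached a fold enrichment of 8.62, 9.33 and 8.25 in WT and 14.6, 9.83 and 11.1 in KO. In WT library 3 the second peak was the higher, at 8.61. Windows with less H3K4me3 in all 3 KO libraries made up 7.25% of those with a call.

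Higher H3K4me3 peaks in KO were seen at the neighbouring Cep41 promoter too, where the fold enrichment was 4.03, 5.88 and 5.82 in WT and 8.94, 7.59 and 10.3 in KO. The same order of the groups was found in 20.3% of the 14907 merged H3K4me3 regions called in all 6 libraries. The log2 ratio of the KO to the WT mean of the highest fold enrichment in the region was 0.77 at Cep41, 0.38 at Copg2 and 0.42 at Klf14, and its median over those regions was 0.06.

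**Figure D3:**
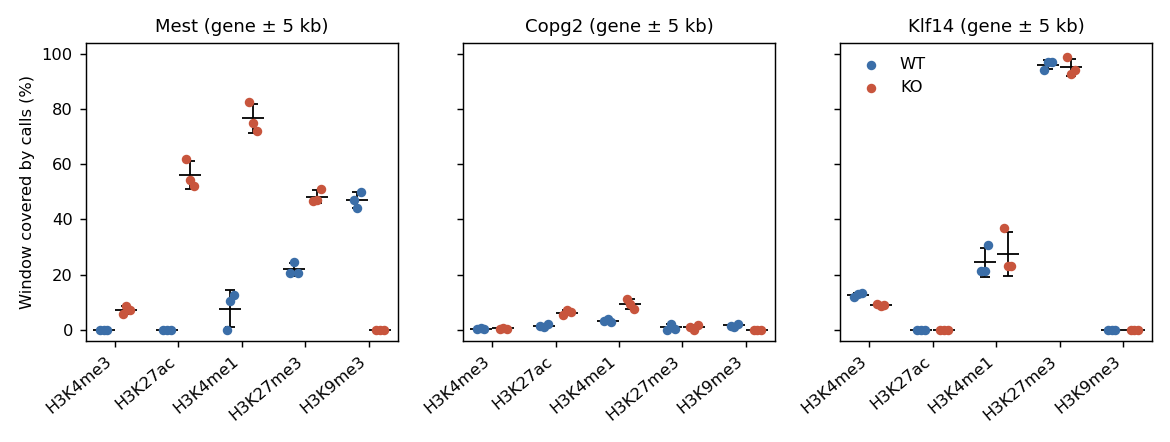
Points give the share of each gene window covered by calls, in percent, in each library (blue WT, red KO), and black bars the mean ± SD (n = 3). Mest shows H3K9me3 at 44.1 to 49.8% in WT and 0% in KO and the reverse order for the other 4 marks, while Klf14 stays at 92.5 to 98.6% for H3K27me3 in both genotypes.

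Around the 3 genes, 8 of 9 neighbours were in the annotation (Copg2os2 was not). They were Ssmem1, the carboxypeptidase genes Cpa4, Cpa5 and Cpa1, the centrosomal gene Cep41, Mir335, Tsga13 and Mkln1. H3K9me3 was called near 1 of the 8, Mir335, which lies in Mest. H3K27ac groups did not overlap at 2 of the 7 with a call (Mir335 and Ssmem1, higher in KO) and H3K4me1 groups at 3 of 7 (Mir335, Ssmem1 and Mkln1, higher in KO), where 21.6% and 11.7% of all gene windows with a call were higher in KO. H3K4me3 was higher in KO at 2 of 5 (Cep41, and Mir335, whose window takes in the main Mest start) and H3K27me3 at 1 of 8 (Cpa1), against 24.5% and 10.9% of all gene windows with a call. With so few genes nothing is read from these counts.

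Between Tsga13 and Klf14 a second place with H3K9me3 was called in both genotypes, at 30927201 to 30929600 in WT library 1 and at 30928001 to 30929600 in KO library 1. It stood at 68.3, 47.3 and 99.4 ChIP reads per kb of call in WT and 91.9, 72.5 and 67.2 in KO, with overlapping groups, so H3K9me3 was still called within the cluster in KO. A weaker stretch beside it (30939401 to 30943000), outside the 3 windows, was called in 3 of 3 WT and 0 of 3 KO libraries at 24.7 to 38.6 ChIP reads per kb.

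**Figure D4:**
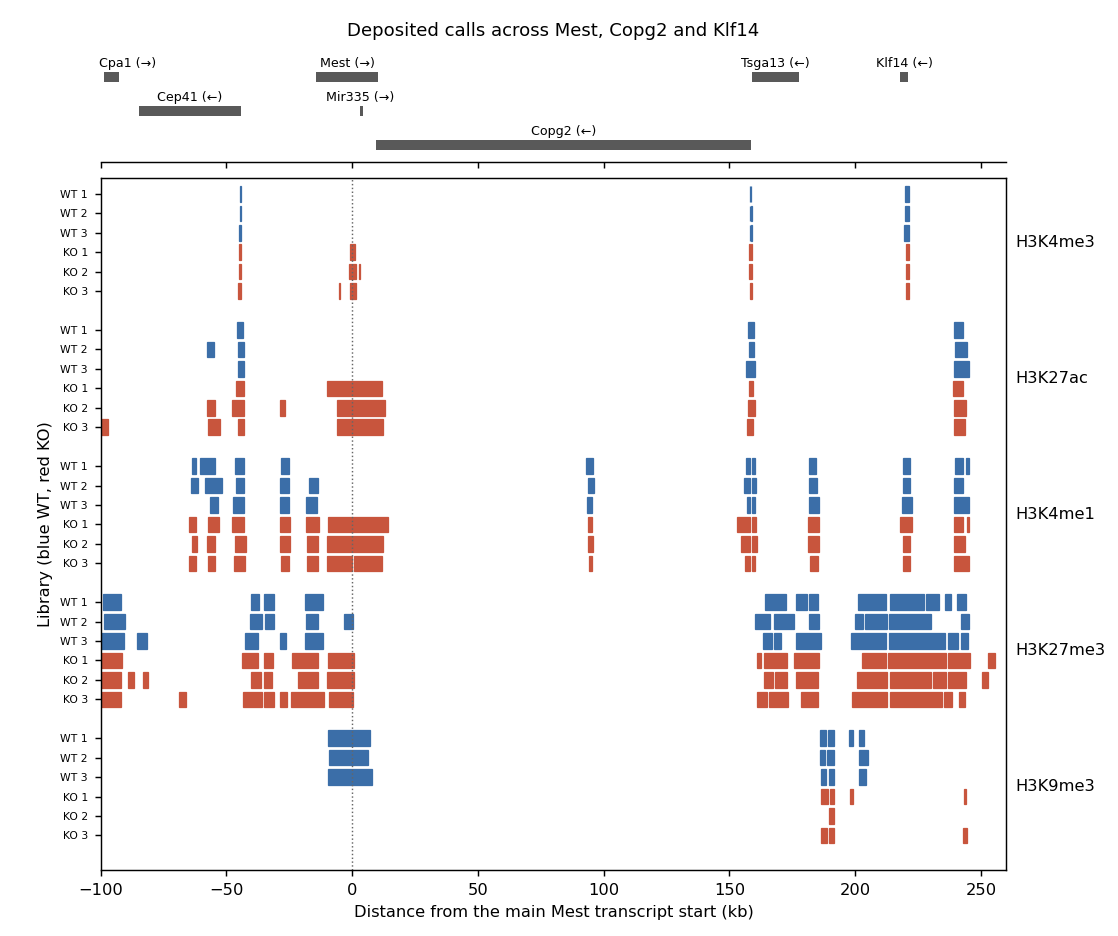
Each row is a library and each bar a deposited call, blue for IκBα-WT and red for IκBα-KO, along the distance from the main Mest start in kb, with the genes and their direction on top. The exchange of marks stands around the Mest start, while the promoters of Cep41, Copg2 and Klf14 carry H3K4me3 in all 6 libraries and Klf14 lies under H3K27me3 in all 6.

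Mest was set beside 20 other imprinted genes that lie at or near a germline methylated control sequence. Their H3K9me3 covered less of the window in all 3 KO than in all 3 WT libraries at 19 of 20, all but Rasgrf1, and more at 0 of 20, where 11.4% and 4.76% of all gene windows with a call did so. The median difference was −32.2 percentage points of the window over the list and −0.51 over all gene windows with a call. At 6 of the 20 (Nap1l5, Nnat, Mcts2, H13, H19 and Meg3) no H3K9me3 was called in any KO library, as at Mest. The share of all gene windows with this pattern was not taken, so nothing is read from that count. Input reads around Meg3 also differed between the genotypes, as given below. Some windows share sequence (Airn with Igf2r, Gnas with Nespas, H13 with Mcts2), and the list was drawn up with results of these libraries known.

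The other marks were less uniform over that list. H3K4me3 was higher in KO at 14 of 20 and lower at 0, H3K27me3 higher at 7 and lower at 1 (Nespas) of 18 with a call, H3K27ac higher at 7 and lower at 3 (Grb10, Gnas and Meg3) of 19, and H3K4me1 higher at 10 and lower at 2 (Grb10 and Meg3) of 20. Over all gene windows with a call, 24.5% were higher and 7.25% lower in KO for H3K4me3, 10.9% and 7.61% for H3K27me3, 21.6% and 8.2% for H3K27ac, and 11.7% and 15.4% for H3K4me1. Median differences over the list were 1.66, 4.49, 3.93 and 6.45 percentage points for H3K4me3, H3K27me3, H3K27ac and H3K4me1, against 0.23, 0.37, 1.92 and −0.68 over all. Around Meg3, input reads of the H3K4me1 experiment were at a log2 ratio of KO over WT of −0.99 relative to the genome, and the part of this in its values was not tested.

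Few genes combined the marks as Mest did. H3K9me3 was called in 3 of 3 WT and 0 of 3 KO libraries, with H3K4me3 and H3K27ac in 3 of 3 KO and 0 of 3 WT, in the window of 1 gene of 21938, which was Mest. This combination was written from the pattern of Mest in these same libraries, so Mest meets it by construction. H3K4me1 is not part of it, and WT libraries 2 and 3 had H3K4me1 calls in the Mest window. Without the demand for 0 calls, 180 genes had H3K9me3 lower and H3K4me3 higher in KO with no overlap, 24 had H3K27ac and H3K4me1 higher as well, and 4 had H3K27me3 higher too, namely Mest, Plagl1, Gse1 and Spg7. Plagl1 is another imprinted gene, read from the paternal copy, and its H3K9me3 covered 16200, 23200 and 22800 bp in WT and 1600, 0 and 0 bp in KO. Its H3K4me3 covered 899, 748 and 606 bp in WT and 1475, 1976 and 1451 bp in KO, so unlike Mest it had H3K4me3 in WT. Of the 24 genes, 13 lie on chromosome 8, Gse1 and Spg7 among them. Relative to the genome, the log2 ratio of KO over WT input reads within 2 Mb was 0.45 at Gse1 and 0.44 at Spg7. Over the 13 genes it was 0.44 to 0.53, but for 1 gene at −0.07. Around the other 11 genes it was −0.12 to 0.11. The part of this in the values of the genes was not tested.

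By the covered share of the window over the 30 libraries, centred on each mark's mean, the 5 genes most like Mest were Snrpn (Pearson's r = 0.932), Gm38393 (0.922), Tmem161b (0.897), Snurf (0.876) and N4bp1 (0.873), of 5067 genes whose share ranged over at least 0.1 in at least 3 marks. Neither Copg2 nor Klf14 was among those 5067. The windows of Snrpn, Snurf and Gm38393 share sequence, in another imprinted cluster, and so are not separate cases. Near N4bp1, on chromosome 8, input reads were at a log2 ratio of KO over WT of 0.46 relative to the genome, and the part of this in its values was not tested. The points are libraries that share genotype and mark, and r is given as a description. Snrpn differed from Mest in that WT had H3K4me3 there, covering 2282, 2127 and 1808 bp in WT and 2273, 2421 and 2638 bp in KO.

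**Figure D5:**
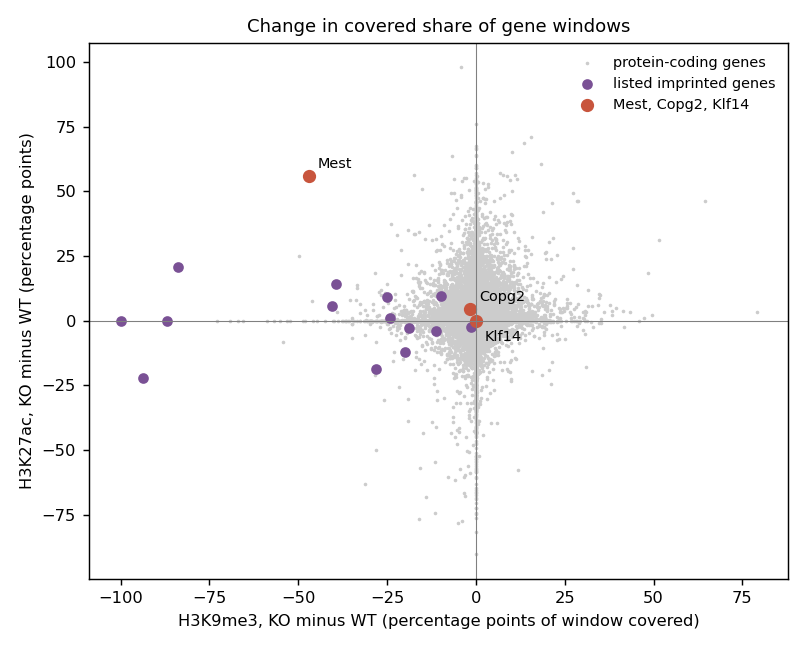
Each point is a protein-coding gene, placed by the KO minus WT difference of the mean share of its window covered by H3K9me3 (horizontal axis) and by H3K27ac (vertical axis), both in percentage points, with the 14 protein-coding genes of the imprinted list in purple and the 3 genes in red. Mest lies at −46.97 and 56.13, and Copg2 and Klf14 lie near the middle.

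Input reads under the calls were compared because each genotype had its own input. In stretches of the locus (the 3 windows, what lies between them and 100 kb beyond) called in all 6 libraries, input reads per kb of call were at 30.5 in WT and 29.9 in KO in the H3K4me1 experiment, a log2 ratio of −0.03, at 22.4 and 22.7 (0.02) in the H3K9me3 experiment, at 31.3 and 31.0 (−0.01) in the H3K27ac experiment and at 16.5 and 19.1 (0.21) in the H3K27me3 experiment. Over the rest of the genome the ratios were −0.01, 0.09, −0.02 and 0.20 in the same order. For H3K4me1, H3K9me3 and H3K27ac, no sequence of the Mest window was called in all 6 libraries. The locus ratios of these marks therefore do not cover the blocks that differed at Mest. With 1 input per genotype and experiment the ratios have no replicate error. H3K4me1 and H3K27ac shared the same input of each genotype, so their ratios are not separate readings.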

How the data were processed

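ChIP-seq calls of 30 libraries were used, 3 IκBα-WT and 3 IκBα-KO per mark, grouped as their labels say. Per the study's methods and the submitters' processing notes, the authors trimmed reads (Trim Galore 0.6.6), aligned them to GRCm38 (Bowtie2 2.4.4), dropped reads of low mapping quality and blacklisted sequence, and called each library on its own at an FDR or q-value under 0.05. The methods give this alignment for H3K4me3, H3K27me3 and H3K4me1 and do not describe H3K9me3, and the notes name the same tools for every sample. For H3K4me3 the authors deposited MACS2 2.2.7.1 peaks with a fold enrichment (a ratio), −log10 p-value, −log10 q-value and score. For the other marks the authors deposited epic2 regions in steps of 200 bp (listed as SICER 0.0.52 in the notes) with the count of ChIP and input reads, p-value, FDR, log2 ratio of ChIP over input and score. For H3K27ac the antibody in the labels is that of H3K4me1, the one in the methods is not, and this was not settled here.

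Calls outside the autosomes, X and Y were dropped, and positions are in 1-based GRCm38 coordinates. No call ended beyond the reference chromosomes. Covered bp and ChIP reads, apportioned by overlapped length, were summed per gene window (gene plus 5 kb on either side). Read values were not scaled between libraries, other than in 1 alternative. Calls of a mark's 6 libraries were merged on overlaps of at least 1 bp. The members, gene lists and rules were chosen with earlier results of these data known, so no test was run on them. The genes named were the 3 members, Nfkbia, the listed neighbours and imprinted genes, and the 5 genes most like Mest, and Gse1 and Spg7 were named after their values were seen. A listed neighbour is not reported here. Intervals were handled in Python 3.11.15 (numpy 2.4.6, pandas 2.3.3), checked on simulated intervals, and drawn with matplotlib 3.10.9. Alternatives were the flank, a stricter FDR, equal list lengths, size factors, another denominator, the merging rule and leaving out each library.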

Additional observations from a re-analysis of the deposited data

How the results depend on the processing

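The results are lists of calls and differences of covered bp with no test, and no paired analysis was possible because the results come from no test and WT and KO libraries of the same number are separate clones. Over all alternatives, 152 values of covered bp or region counts stayed within the spread between libraries, or within 1.5 times the main count, and 16 moved further. Of the values of ChIP reads per kb and of likeness to Mest, 118 stayed so, 25 moved further and 2 changed sign. The H3K9me3 difference at Mest was −41.05 ChIP reads per kb of window, −57.52 with the gene body alone and −31.91 with 10 kb on either side. The KO minus WT difference in covered bp moved most with the flank. With the gene body alone it was −303.7 bp for H3K4me3 at Klf14, 8267 bp for H3K27me3 at Mest, 17598 bp for H3K27ac and 20416 bp for H3K4me1 at Mest, and at Copg2 0 bp for H3K9me3, 2714 bp for H3K27ac and 4380 bp for H3K4me1. With 10 kb on either side it was 13067 bp for H3K27me3 at Mest, 492.7 bp for H3K27me3 at Klf14 (−133.3 bp with 5 kb, with overlapping groups), and at Copg2, whose window then takes in the main Mest start, 2055 bp for H3K4me3, −7514 bp for H3K9me3, 12514 bp for H3K27ac and 14314 bp for H3K4me1. When lists were cut to equal numbers of calls by rank, the H3K4me3 difference at Mest was 1936 bp. Regions called in every WT and no KO library that touch the windows numbered 2 when merging needed 200 bp of overlap, and 1 to 2 when a library was left out (2 without WT replicate 2). Per kb of call instead of per kb of window, the difference in ChIP reads at Copg2 turned to −2.26 for H3K27ac and −2.81 for H3K4me1. The groups overlapped on that scale for both marks, and the cause was not tested. The lists hold called sequence only, so levels under the calling threshold were not measured, and 3 clones per genotype and 1 input per genotype and experiment limit the precision.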
